A study of Mus musculus with 33 samples.

Results

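The genes described here are 40 mouse genes of glucose use and of the response to low oxygen, chosen by name as enzymes and transporters of glycolysis, their regulatory kinases, and genes of hypoxia sensing or induction. A gene entered with every array probe set whose annotation gave its symbol and no other, and its value was the mean of those probe sets. By this rule 37 of the 40 had a value, among 18193 genes in all, and they rested on 85 probe sets. Of the 37, 23 belong to glycolysis and its control and 14 to hypoxia sensing and induction. Gpi1 and Eno1 were not analysed here, and the 3 probe sets of Bnip3l also match a pseudogene and were left out.

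Glycolysis splits glucose into pyruvate in the cytosol, and lactate dehydrogenase turns pyruvate into lactate when it is not burned in mitochondria. In low oxygen the prolyl hydroxylases of the Egln family no longer mark the alpha subunits of hypoxia-inducible factor (HIF) for breakdown. The stabilised subunits pair with ARNT, bind short DNA elements and switch on glycolytic genes together with genes such as Vegfa and Bnip3. Many steps of the pathway have several isoenzymes that differ between tissues, and the aldolase C and enolase 2 forms are known from neurons.

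The cells were enteric neural crest cells (ENCCs), the precursors of the enteric nervous system, of C57BL/6 mouse embryos at embryonic day 14.5. They carried Wnt1-Cre and R26-YFP, so that YFP marks cells with a Wnt1-Cre history and not a single cell type, and they were sorted by fluorescence. Both kinds of ENCC well had FGF and EGF in the medium and fibronectin beneath the cells. The untreated well had no GDNF, and the treated well of the same gut had 50 ng/ml of GDNF, the ligand of the receptor RET. Whole guts, from duodenum to anus, came from wild-type C57BL/6 embryos of the same age and were not cultured. The comparisons ask how GDNF alters ENCCs and how ENCCs differ from the organ they colonise.

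RNA was read on 33 arrays, of which 25 held ENCCs and 8 held whole guts. The ENCC arrays, 12 untreated and 13 treated, carried 18 RNAs of 9 guts, and 17 arrays formed batch 1 and 16 batch 2, as the titles name them. A value is a score: the rank of a probe set within its array written as a normal quantile, after a scaling that appears to have been made on ENCC arrays of the batch. A difference in score is therefore no fold change, and levels of different genes cannot be compared. Ranks taken after such a scaling would also order unlike spreads on ENCC and whole gut arrays. Equal scores in ENCCs and whole gut then need not be equal expression, and the sign of a small difference between them is not secured. For the 7 ENCC RNAs read in both batches, scores of the 2 arrays correlated over probe sets at 0.117 to 0.325, the lowest being the untreated well of gut 3. Different whole guts correlated at 0.902 to 0.952. A scaling on ENCC arrays would take out what ENCC arrays share and leave what sets whole gut apart, so the ranges do not compare reproducibility. The number of arrays limits the precision. Against whole gut, by limma, markers of progenitors and glia were higher for 6 of 8 genes in untreated and 8 of 8 in treated ENCCs. All 11 epithelial and all 9 endothelial markers were lower in both. These scores do not keep a zero, so absence of a marker cannot be read from them.

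Promoters of the group are shown first, because hypoxia-inducible factor acts through short elements in them. The core of its binding element was searched as ACGTG and GCGTG on both strands, in windows of 250 bases before to 50 bases after each start in the RefSeq table of build GRCm38.p6. An ACGTG inside the E-box CACGTG counts as a match too, on each of its strands, although other factors bind that box. The table held 36 of the 40 genes in 54 windows. At least 1 of the cores occurred in 79.6% of these windows and in 43.8% of all 32851 windows of the table. ACGTG alone occurred in 53.7% of the windows of the group and 19.6% of all, GCGTG in 57.4% and 32.4%, and CACGTG in 13.0% and 7.15%. The genes were picked as glycolytic or hypoxia-related, some of them known targets of the factor, so this share is a description of the choice. A match is a run of letters and not a bound site.

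The following windows belong to genes that the results turn on, with cores in capitals and each read 5′ to 3′ in the direction of its gene. Ldha, lactate dehydrogenase A, lies at chr7:46845554-46845853 on the plus strand. Bnip3, a mitochondrial protein of mitophagy, lies at chr7:138909457-138909756 on the minus strand. Hk1, hexokinase 1, lies at chr10:62340372-62340671 on the minus strand. Eno2, the neuronal enolase, lies at chr6:124769624-124769923 on the minus strand. Car9, a membrane carbonic anhydrase, lies at chr4:43506776-43507075 on the plus strand. Hk1 and Ldha each have a further window in the table, which is not shown.
Ldha: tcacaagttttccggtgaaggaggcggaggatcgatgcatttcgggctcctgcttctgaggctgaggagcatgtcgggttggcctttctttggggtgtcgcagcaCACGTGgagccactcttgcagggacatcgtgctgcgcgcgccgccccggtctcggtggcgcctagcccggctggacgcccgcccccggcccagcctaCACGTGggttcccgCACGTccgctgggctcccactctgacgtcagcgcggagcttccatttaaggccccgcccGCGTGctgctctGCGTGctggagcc
Bnip3: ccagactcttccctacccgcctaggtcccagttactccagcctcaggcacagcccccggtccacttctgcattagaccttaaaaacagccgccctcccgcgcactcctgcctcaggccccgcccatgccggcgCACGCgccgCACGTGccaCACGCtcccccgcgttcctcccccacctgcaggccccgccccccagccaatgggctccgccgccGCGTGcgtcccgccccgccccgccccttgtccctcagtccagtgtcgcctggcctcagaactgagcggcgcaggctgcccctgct
Hk1: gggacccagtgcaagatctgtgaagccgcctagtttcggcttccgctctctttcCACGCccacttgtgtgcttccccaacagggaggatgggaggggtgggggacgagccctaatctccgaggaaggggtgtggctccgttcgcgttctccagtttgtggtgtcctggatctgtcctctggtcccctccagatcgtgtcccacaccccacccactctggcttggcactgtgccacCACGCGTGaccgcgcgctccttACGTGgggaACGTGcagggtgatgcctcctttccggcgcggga
Eno2: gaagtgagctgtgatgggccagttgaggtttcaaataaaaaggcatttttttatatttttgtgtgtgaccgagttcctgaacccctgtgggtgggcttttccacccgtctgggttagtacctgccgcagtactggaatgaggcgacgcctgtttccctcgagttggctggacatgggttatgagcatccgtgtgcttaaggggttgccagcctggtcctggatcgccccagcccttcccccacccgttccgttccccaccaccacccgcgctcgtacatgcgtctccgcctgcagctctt
Car9: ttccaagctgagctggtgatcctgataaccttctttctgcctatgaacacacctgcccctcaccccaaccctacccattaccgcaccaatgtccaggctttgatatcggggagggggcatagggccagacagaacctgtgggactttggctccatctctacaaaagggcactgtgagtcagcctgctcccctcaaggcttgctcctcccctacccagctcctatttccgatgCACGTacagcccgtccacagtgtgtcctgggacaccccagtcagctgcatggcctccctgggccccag
Counted over both strands, the Ldha window held 5 ACGTG and 2 GCGTG, and the Bnip3 and Hk1 windows held 2 ACGTG and 3 GCGTG each. A CACGTG gives a match on each strand, so the 2 ACGTG of Bnip3 lie in 1 CACGTG stretch. The Eno2 window held neither core, and the Car9 window held 1 ACGTG. Set beside the GDNF comparison given next, a core occurred for 10 of the 12 genes with a window that rose, for 5 of the 5 that fell and for 17 of the 17 that were not called. The genes that rose and had no core were Tpi1 and Eno2. These counts are of genes, some with several windows, and no such share was taken over all genes. They cannot be set against the shares of windows given above.

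With GDNF 13 of the 37 genes rose and 5 fell. Among the risers were hexokinase 1, aldolase A, enolase 2, the neuronal glucose transporter gene Slc2a3, and the secreted angiogenic factor gene Vegfa. The genes that fell were Ldhb, Pfkfb4, Pdk3, Egln3 and P4ha2. A call here is an adjusted p under 0.05 from limma fitted to the treated minus untreated differences of 9 guts, with adjustment over all 18193 genes. Of all genes, 18.3% were called higher and 13.2% lower, against 35.1% and 13.5% of the group. The share that fell was thus near the background. On the glycolysis side 10 of 23 rose (43.5%) and 3 fell (13.0%), and on the hypoxia side 3 of 14 rose (21.4%) and 2 fell (14.3%). Both shares of the hypoxia side were thus near those of all genes. The median difference was 0.33 over the 37 genes and 0.005 over all genes. Of the 37 genes, 12 were higher in the treated well of all 9 guts and 1 was lower in all 9, while 11.7% and 6.14% of all genes were so.

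**Figure D1:**
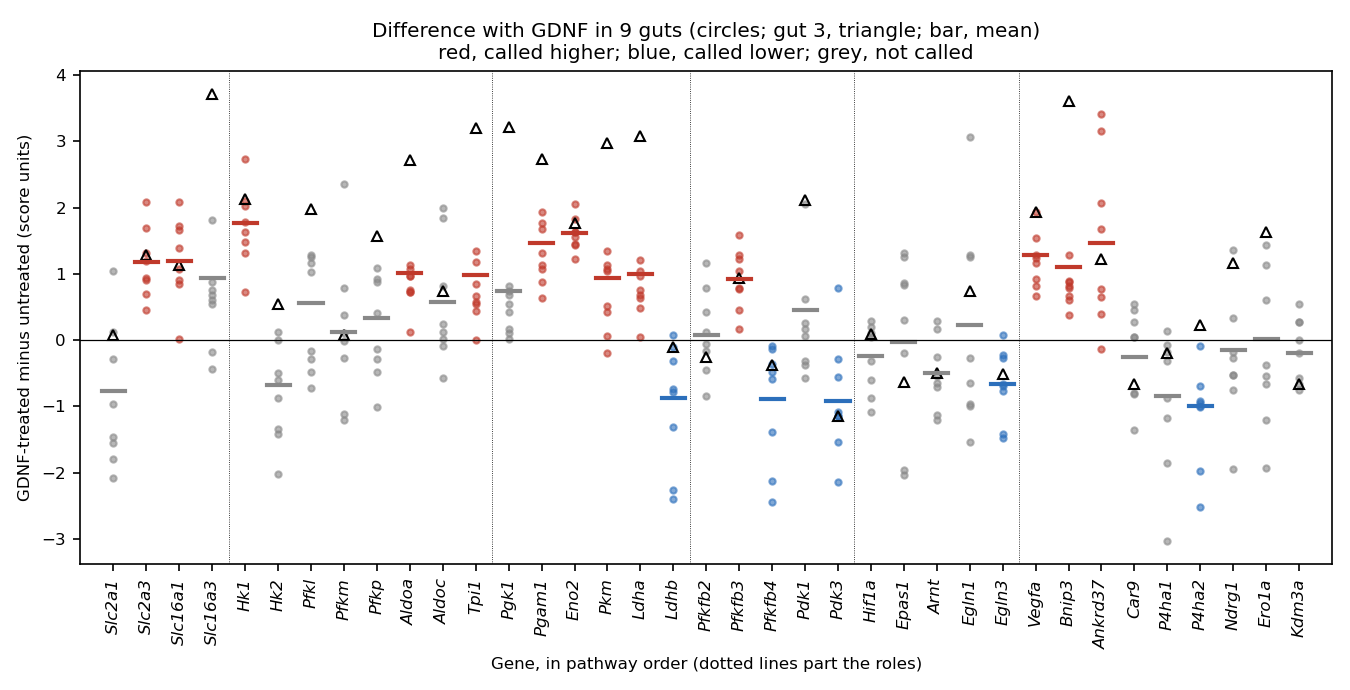
Difference in score between the treated and the untreated well of each of 9 guts (y axis, score units) for each of the 37 genes in pathway order (x axis); circles are guts, the triangle is gut 3, and the bar is the mean, red for genes called higher, blue for lower and grey for not called. Eno2 spans 1.22 to 2.05 over the guts, and gut 3 stands above the other guts for Bnip3 (3.61), Pgk1 (3.22) and Tpi1 (3.20).

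Among the transporters, Slc2a3, which encodes the high-affinity glucose transporter GLUT3, differed by 0.46 in the lowest gut, 1.19 at the median and 2.09 in the highest. Its mean difference was 1.18 ± 0.50 (SD, n = 9; adjusted p = 0.00103). Every gut had the higher score in the treated well, and 3 of the 4 probe sets differed by 1.48 to 1.81 while the other was at -0.29. Slc2a1, the widely expressed glucose transporter GLUT1, was at -0.77 ± 1.06 and was not called (adjusted p = 0.0849), with a negative difference in 6 of 9 guts. Slc16a1, the lactate carrier MCT1, ran from 0.02 over a median of 1.13 to 2.08, with a mean of 1.20 ± 0.60 (adjusted p = 0.00145). Slc16a3, the lactate exporter MCT4, was at 0.93 ± 1.22 without a call (adjusted p = 0.0608), and its highest difference, 3.72, was that of gut 3.

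In the upper part of the pathway, where glucose is phosphorylated and split, Hk1 had the clearest difference. Hexokinase 1, which phosphorylates glucose at the mitochondrial surface, differed by 0.72 to 2.73 over the guts, with a median of 1.79 and a mean of 1.77 ± 0.57 (adjusted p = 1.05e-04). Its sister gene Hk2, the inducible hexokinase, was at -0.68 ± 0.83 (adjusted p = 0.0759) and higher in 3 of 9 guts. The 3 phosphofructokinase genes Pfkl, Pfkm and Pfkp, which encode the committing enzyme, had means of 0.56, 0.12 and 0.33 and were not called. Aldoa, the common aldolase, rose by 1.02 ± 0.71 (adjusted p = 0.00660), from 0.12 over a median of 0.96 to 2.72, with all 5 probe sets between 0.93 and 1.19. Aldoc, the neuronal aldolase, was at 0.57 and not called. Tpi1, which interconverts the triose phosphates, rose by 0.98 ± 0.92 (adjusted p = 0.0198), with gut 1 at 0.00 and gut 3 at 3.20.

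The lower part of the pathway, which yields ATP and pyruvate, held Eno2, the gene with the largest moderated t of the group. Enolase 2 differed by 1.22 in the lowest gut, 1.63 at the median and 2.05 in the highest, a mean of 1.62 ± 0.25 (adjusted p = 6.59e-05). Its SD was the smallest among the 13 genes that rose. Pgam1, phosphoglycerate mutase, ran from 0.64 over a median of 1.31 to 2.74 and rose by 1.46 ± 0.64 (adjusted p = 4.58e-04). Pkm, pyruvate kinase, rose by 0.93 ± 0.93 (adjusted p = 0.0257), in 8 of 9 guts. Pgk1, phosphoglycerate kinase, had a mean of 0.74 ± 0.97 and was not called (adjusted p = 0.0774), although every gut was above 0. The lowest Pgk1 difference was 0.01 and the highest, that of gut 3, was 3.22.

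The lactate dehydrogenase genes went opposite ways. Ldha, the form that favours lactate, differed by 0.05 in the lowest gut, 0.76 at the median and 3.08 in the highest, a rise of 0.99 ± 0.85 (adjusted p = 0.0144). Ldhb, the form that favours pyruvate, ran from -2.40 over a median of -0.74 to 0.08, and it fell by 0.88 ± 0.93 (adjusted p = 0.0331). The Ldhb difference was above 0 in gut 5 alone, and all 4 of its probe sets lay between -0.92 and -0.79. Guts 8 and 9 carried its lowest differences, and without either of them it was not called (-0.71, adjusted p = 0.0883, without gut 8; -0.69, adjusted p = 0.0818, without gut 9), nor without gut 6 or gut 7. The difference of Ldha was above that of Ldhb in 9 of 9 guts, by 1.87 ± 1.09. Other pairs of forms were set side by side in the same way, as a description with no test: Hk1 lay above Hk2 by 2.44 ± 0.95 and Slc2a3 above Slc2a1 by 1.94 ± 0.95, each in 9 of 9 guts. Aldoa lay above Aldoc by 0.45 ± 1.11, in 7 of 9. Pfkfb3 lay above Pfkfb4 by 1.80 ± 0.94, in 9 of 9, and Pdk1 above Pdk3 by 1.36 ± 1.32, in 8 of 9. Egln1 lay above Egln3 by 0.88 ± 1.54 and P4ha1 above P4ha2 by 0.15 ± 0.79, each in 6 of 9.

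The bifunctional PFKFB enzymes set the level of a fructose bisphosphate that drives phosphofructokinase, and the PDK kinases shut the entry of pyruvate into mitochondria. Pfkfb3, the form with high kinase activity, rose by 0.92 ± 0.43 (adjusted p = 0.00391), from 0.17 over a median of 0.93 to 1.58. Its 2 probe sets differed in size, at 1.65 and 0.18. Pfkfb4 was below 0 in all 9 guts, from -2.44 over a median of -0.48 to -0.09, and fell by 0.89 ± 0.88 (adjusted p = 0.0276). The Pfkfb4 call ended with the mean of the hybridisation controls as a covariate (-0.48, adjusted p = 0.301). Pdk3 fell by 0.92 ± 0.83 (adjusted p = 0.0194), in 8 of 9 guts. Pdk1 was at 0.45 and Pfkfb2 at 0.08, and neither was called.

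On the hypoxia side the sensors and transcription factor subunits gave 1 call of 5. Egln3, a prolyl hydroxylase that HIF itself induces, fell by 0.66 ± 0.52 (adjusted p = 0.0327), in 8 of 9 guts and with both probe sets, at -0.70 and -0.63. Hif1a, the main alpha subunit, was at -0.24 with 4 probe sets between -0.65 and 0.18. Epas1, the second alpha subunit known as HIF-2 alpha, was at -0.03, and Egln1, the main oxygen sensor, at 0.22. Arnt, the shared beta subunit, was at -0.50 (adjusted p = 0.0964). The test reads RNA, while HIF activity is set by protein stability, which these arrays do not measure.

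Of the 9 hypoxia-induced genes 3 rose, 1 fell and 5 were not called. Vegfa differed by 0.67 in the lowest gut, 1.24 at the median and 1.94 in the highest, a rise of 1.28 ± 0.46 (adjusted p = 4.78e-04), with probe sets at 1.56 and 0.99. Bnip3 ran from 0.38 over a median of 0.81 to 3.61 and rose by 1.10 ± 0.97 (adjusted p = 0.0125). All 9 guts were above 0 for both genes, and for Bnip3 the other 8 guts reached at most 1.28. Ankrd37, an ankyrin repeat gene known as a HIF target, ran from -0.14 over a median of 1.23 to 3.41 and rose by 1.47 ± 1.22 (adjusted p = 0.00607). P4ha2, a collagen prolyl hydroxylase, fell by 0.99 ± 0.84 (adjusted p = 0.0137), in 8 of 9 guts. The genes without a call were Car9 (-0.25), P4ha1 (-0.84), Ndrg1, a stress-induced gene (-0.15), Ero1a, an oxidase of the endoplasmic reticulum (0.01), and Kdm3a, a histone demethylase (-0.20).

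Several of these means rested in part on gut 3. Its difference was the highest of the 9 guts for 15 of the 37 genes (40.5%), and for 11.6% of all genes. Both arrays of its treated well gave like scores for some of these genes: Pgk1 stood at 2.58 in batch 1 and 2.07 in batch 2, and Bnip3 at 3.00 and 3.07. They differed more for Slc16a3 (3.82 and 2.48), Pfkp (1.41 and 0.02) and Ero1a (1.49 and 0.52). Without gut 3, 12 genes rose and 6 fell. Pkm then missed the threshold (0.68, adjusted p = 0.0523) and Hk2 passed as lower (-0.83, adjusted p = 0.0377).

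Batch and pairing were examined in turn. Batch 1 alone, with 8 guts, called 12 genes higher and 4 lower. Batch 2 alone, with 4 guts, called none of the 18193 genes by limma, while 3516 genes, 14 of the group higher and 0 lower, had an unadjusted p under 0.05. When the wells were treated as independent, without the pairing by gut, 11 genes of the group rose and 1 fell. Of the 18 calls, 11 held in every alternative run apart from batch 2 alone. These were Slc2a3, Slc16a1, Hk1, Aldoa, Tpi1, Pgam1, Eno2, Pfkfb3, Vegfa, Bnip3 and Ankrd37, all higher. Each of the 5 falls and the rises of Ldha and Pkm were lost in at least 1. Over the 7 RNAs read in both batches, the only probe set of Ankrd37 correlated at just 0.203 between the batches. The most reproducible probe set of each other gene that held correlated at 0.706 to 0.998. These RNAs came from treated and untreated wells, and arrays of them also enter the GDNF differences. A difference with GDNF can itself raise the correlation, which is therefore no separate support for the calls.

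Other measures moved with GDNF. Of 16 markers of enteric neurons 13 rose, and their mean score ran from -1.0 to -0.35 in untreated and from 0.61 to 0.76 in treated wells of batch 2. Their mean difference was 1.32 ± 0.24 and was above 0 in 9 of 9 guts. Of 11 mesenchyme markers 4 fell and 0 rose, when 13.2% of all genes fell. The mean difference of these 11 was -0.66 ± 0.63, below 0 in 8 of 9 guts. Of 8 ribosomal protein genes 7 fell, with a mean difference of -0.96 ± 0.37, below 0 in 9 of 9 guts. The difference of the hybridisation controls, which are spiked in and do not come from the cells, ran from -2.177 to 0.651 over the guts. Of 11 genes of dividing cells 0 were called, with mean differences from -1.58 to 2.53 over the guts. The part of the neuronal share, of the mesenchymal share or of RNA quality in the GDNF differences was not tested. With the hybridisation controls as a covariate 15 genes of the group rose and 1 fell.

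Genes of neighbouring pathways are read against the 18.3% of all genes that rose and the 13.2% that fell. Of 21 other genes of glycolysis and pyruvate entry 9 rose and 0 fell, led by the mitochondrial pyruvate carrier gene Mpc1 (1.63 ± 0.55, adjusted p = 1.46e-04). Dlat, a pyruvate dehydrogenase subunit, rose by 1.51 ± 0.47 and Tigar, a fructose bisphosphatase, by 1.37 ± 0.57. In the pentose phosphate pathway 3 of 8 rose and 1 fell, among them Prps1 (1.63 ± 0.61), Pgd (1.42 ± 0.53) and Tkt (1.35 ± 0.50). Glycogen genes split, with 3 of 12 higher and 4 lower: Gyg, the glycogen primer, rose by 1.21 ± 0.47 while the glycogen synthesis genes Ugp2 and Gbe1 fell by 1.27 ± 0.60 and 1.47 ± 0.90. Of 13 genes that control HIF, 4 rose, including Cul2, the scaffold of the VHL ubiquitin ligase (1.16 ± 0.23), and Siah2, a ligase for Egln proteins (1.11 ± 0.62), and 3 fell, including the coactivator Ep300 (-1.21 ± 0.79). Of 28 further hypoxia-induced genes 4 rose and 9 fell. The falls with the largest moderated t were Stc2, a secreted glycoprotein (-1.48 ± 0.47), Ddit4, an inhibitor of mTOR (-1.62 ± 0.65), and Plod2, a lysyl hydroxylase (-1.32 ± 0.50).

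Several probe sets were available for 23 of the genes, which allows a check within the array. In the GDNF comparison the probe sets of a gene had 1 sign for 13 of these 23 genes. Disagreement was widest for Slc2a3, from -0.29 to 1.81, followed by Ero1a, from -1.17 to 0.71, and Pfkp, from -0.74 to 1.02. Arnt and P4ha1, neither of them called, each had a probe set that was lower in all 9 guts, at -1.39 and -1.37.

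**Figure D2:**
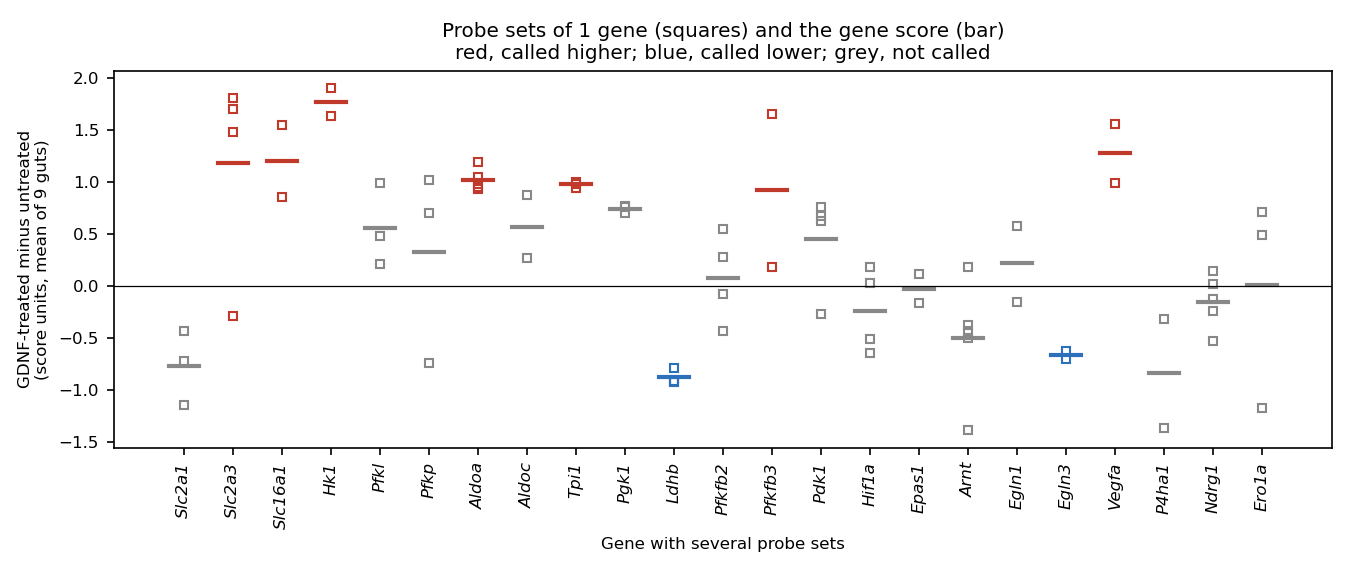
GDNF-treated minus untreated score (y axis, score units, mean of 9 guts) of the single probe sets (squares) and of the gene (bar) for the 23 genes with several probe sets (x axis); red genes were called higher, blue lower and grey not called. The 5 Aldoa squares lie together between 0.93 and 1.19, whereas those of Slc2a3 run from -0.29 to 1.81.

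Untreated ENCCs lay below whole gut for many genes of the group. Compared on the 4 untreated ENCC and 8 whole gut arrays of batch 2, 22 of 37 genes were called lower and 4 higher, when 22.8% and 19.8% of all genes were so called. As shares of the group this was 59.5% lower and 10.8% higher. The spread of the scores differed greatly between the groups: the median SD over all genes was 0.755 for the untreated ENCC arrays and 0.154 for whole gut. How far the scaling of the scores shapes these SDs was not tested. A limma fit with a separate spread for each group, chosen after these SDs were seen, called 18 genes of the group lower and 1 higher, and 11.7% and 9.01% of all genes. Below, a gene is said to be lower or higher only where both fits called it. In bulk tissue, fewer cells of a type and less RNA per cell cannot be told apart, and ENCCs are sorted and cultured cells whereas whole gut is fresh tissue of many cell types. The scores of all 8 whole guts serve both for this comparison and for that of treated ENCCs.

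On the glycolysis side 10 of 23 genes were lower in untreated ENCCs than in whole gut by both fits, and Eno2 was higher. In lower glycolysis 4 of 6 genes were lower by both, and in the upper part Pfkl and Tpi1 were, of 8. Aldoa (-0.60, adjusted p = 0.0785), Pfkm (0.67), Pfkp (0.66) and Aldoc (0.49) were not called by either fit. Pgk1 scored -0.83, -0.90, 0.00 and -0.49 in the untreated wells of guts 2, 3, 8 and 9 and from 1.01 over a median of 1.13 to 1.16 in whole gut. The groups did not overlap, and the difference was -1.67 (adjusted p = 5.35e-06). Pgam1 scored -1.0, -0.96, -0.54 and -0.73 against 0.60 to 0.85 in whole gut with a median of 0.81, a difference of -1.59 (adjusted p = 2.12e-06). Ldha scored -1.12, -1.15, 0.03 and -0.17 against 0.91 to 1.04 with a median of 1.01, also a difference of -1.59 (adjusted p = 5.57e-05). Guts 2 and 3 were the lower of the untreated wells for Ldha, as they were for Tpi1, with scores of -1.05 and -1.06 against -0.07 and -0.11. Tpi1 differed by -1.63 (adjusted p = 2.57e-05), Pkm by -1.49 (adjusted p = 1.22e-04), and Pfkl, whose untreated wells scored -0.41, -0.09, -0.15 and -0.28, by -1.54 (adjusted p = 2.06e-06).

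**Figure D3:**
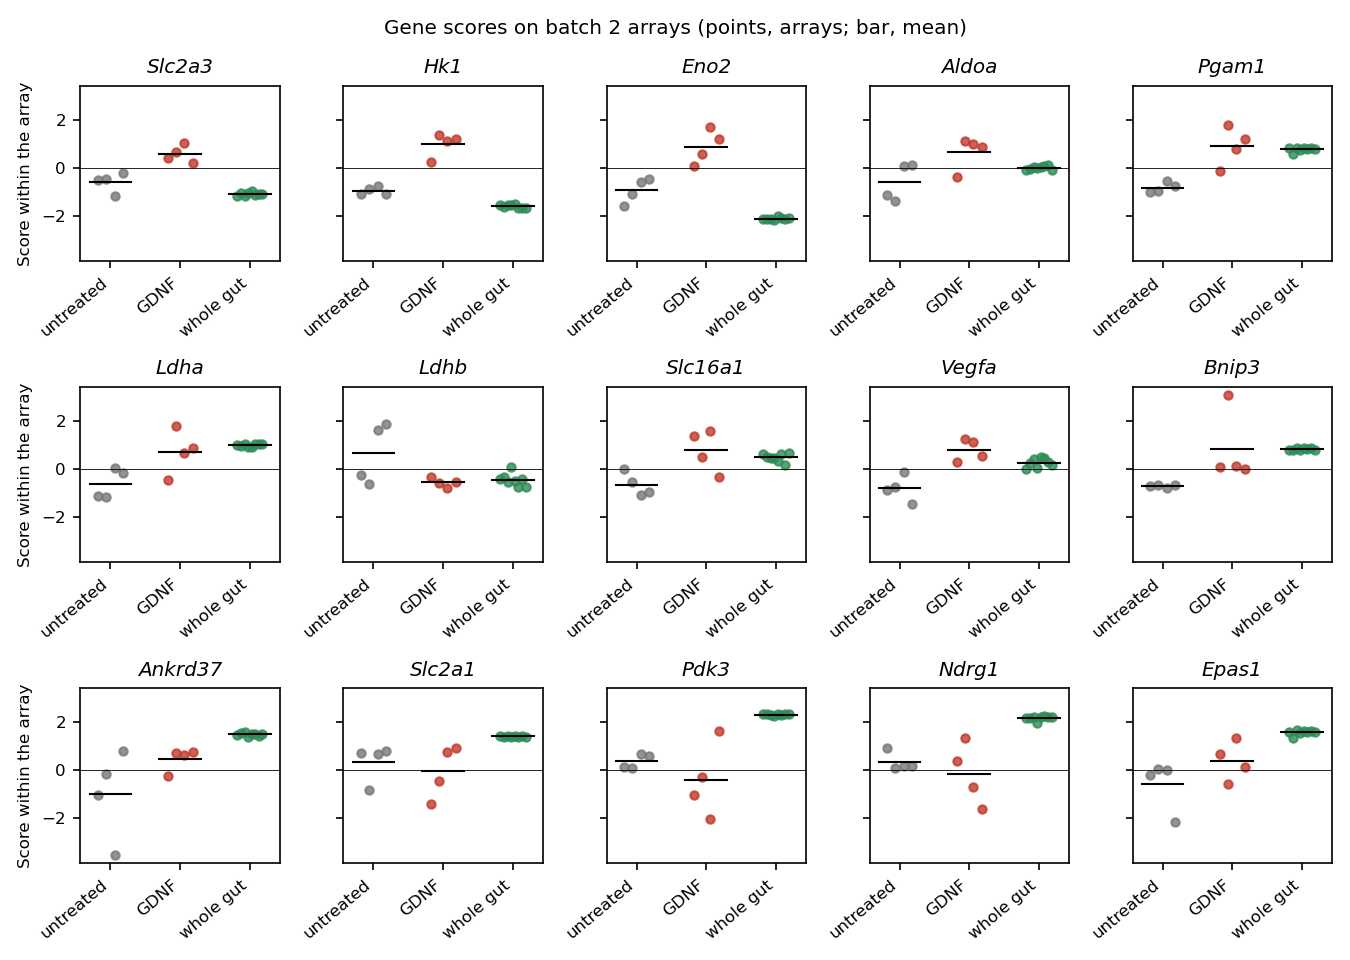
Scores on batch 2 arrays (y axis, score within the array) of 15 genes in 4 untreated wells, 4 GDNF-treated wells and 8 whole guts (x axis); points are arrays and bars are means. For Hk1 and Eno2 the untreated wells lie above whole gut and the treated wells above both, without overlap, and the treated well of gut 3 stands apart for Bnip3 at 3.07.

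Eno2 and Hk1 lay above whole gut in every untreated well. For Eno2 they scored -1.55, -1.06, -0.59 and -0.47, all above whole gut, which ran from -2.16 over a median of -2.10 to -1.99. The difference was 1.17 (adjusted p = 2.37e-04, and 0.00519 with a separate spread). Hk1 scored -1.08, -0.87, -0.73 and -1.09 against -1.65 to -1.50 in whole gut. It did not overlap whole gut either, but its difference of 0.63 passed only the fit with 1 spread (adjusted p = 0.00265, and 0.0781 with a separate spread). Ldhb (1.11, adjusted p = 0.0361) and Slc2a3 (0.50, adjusted p = 0.0352) also passed only that fit. Ldhb rested on guts 8 and 9, at 1.64 and 1.88, since guts 2 and 3 scored -0.23 and -0.62 and lay inside the range of whole gut.

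The pyruvate dehydrogenase kinase genes Pdk1 and Pdk3 and a pair of transporter genes were lower as well. The other kinase genes, Pdk2 (-0.78, adjusted p = 0.0804) and Pdk4 (-0.39, adjusted p = 0.366), are not of the group and were not called in the fit with 1 spread. Pdk3 scored 0.12, 0.09, 0.67 and 0.59 in the untreated wells and from 2.22 over a median of 2.31 to 2.33 in whole gut, a difference of -1.93 (adjusted p = 7.56e-07). Pdk1 scored -0.22, 0.09, -0.99 and -0.34 against 1.18 to 1.32 with a median of 1.22, a difference of -1.60 (adjusted p = 1.12e-05). Neither gene had an untreated well inside the range of whole gut. Slc16a3 was lower, at -1.60 (adjusted p = 4.25e-06) and Slc2a1 at -1.06 (adjusted p = 0.00394). For Slc2a1 the untreated well of gut 3 stood at -0.83 and the other 3 between 0.67 and 0.80, and without gut 3 the difference was -0.67 (adjusted p = 4.88e-05). Slc16a1 (-1.13), Hk2 (-1.04) and Pfkfb3 (-1.19) were below whole gut in the fit with 1 spread alone.

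All 9 calls on the hypoxia side were lower in untreated ENCCs, and 8 of them held with a separate spread. Ndrg1 scored 0.90, 0.08, 0.19 and 0.18 in the untreated wells against 1.95 to 2.22 in whole gut with a median of 2.19, a difference of -1.82 (adjusted p = 2.29e-06). Bnip3 scored -0.71, -0.66, -0.77 and -0.66 against 0.81 to 0.87, a difference of -1.53 (adjusted p = 1.26e-06). Both genes were apart from whole gut in all wells. Epas1 was lower, at -2.14 (adjusted p = 1.26e-04), with gut 9 at -2.15 and the other wells between -0.21 and 0.04. Ankrd37 was lower, at -2.46 (adjusted p = 0.00193), with gut 8 at -3.51, and without gut 8 the difference was -1.61 (adjusted p = 4.32e-04). Egln3 was lower, at -1.09 (adjusted p = 0.00941), and without gut 8 at -0.71 (adjusted p = 0.0258). Egln1 was lower, at -0.94, Car9 at -1.30 and Ero1a at -1.32. Vegfa, at -1.07, passed only with 1 spread, and Hif1a (-0.13), Arnt (-0.17), P4ha1 (0.50), P4ha2 (0.03) and Kdm3a (-0.84) were not called.

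Groups that did not overlap numbered 20 genes below whole gut and 2 above it, Hk1 and Eno2. Over all genes, 15.2% lay below whole gut in all untreated wells and 12.4% above. The untreated array of gut 3 in batch 2 is the one that resembled its batch 1 array least, and it gave Hk2 a score of -1.60 where batch 1 gave 1.93, and Pfkm -1.72 where batch 1 gave 1.01. Without that array 7 genes were called higher and 23 lower in the fit with 1 spread, with Pfkm at 1.25 (adjusted p = 1.77e-06), Pfkp at 0.88 (adjusted p = 0.0113) and P4ha1 at 0.61 (adjusted p = 0.0200). Hk2 was then at -0.46 (adjusted p = 0.0142). Over the 7 RNAs read in both batches, the only probe sets of Hk2 and Pfkm correlated at -0.672 and -0.332 between the batches.

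GDNF-treated ENCCs were called both above and below whole gut. On the treated wells of the same 4 guts, 14 of the 37 genes were called lower and 8 higher, against 26.0% and 25.1% of all genes. As shares of the group this was 37.8% and 21.6%. With a separate spread for each group 10 were lower and 5 higher, against 15.9% and 16.0% of all genes. The share called higher was thus not above that of all genes in either fit. The 5 were Slc2a3, Hk1, Pfkm, Aldoc and Eno2, which is 21.7% of the glycolysis side. On the glycolysis side 3 genes were lower by that fit, Slc2a1, Hk2 and Pdk3, and on the hypoxia side 7 of 14 (50.0%).

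**Figure D4:**
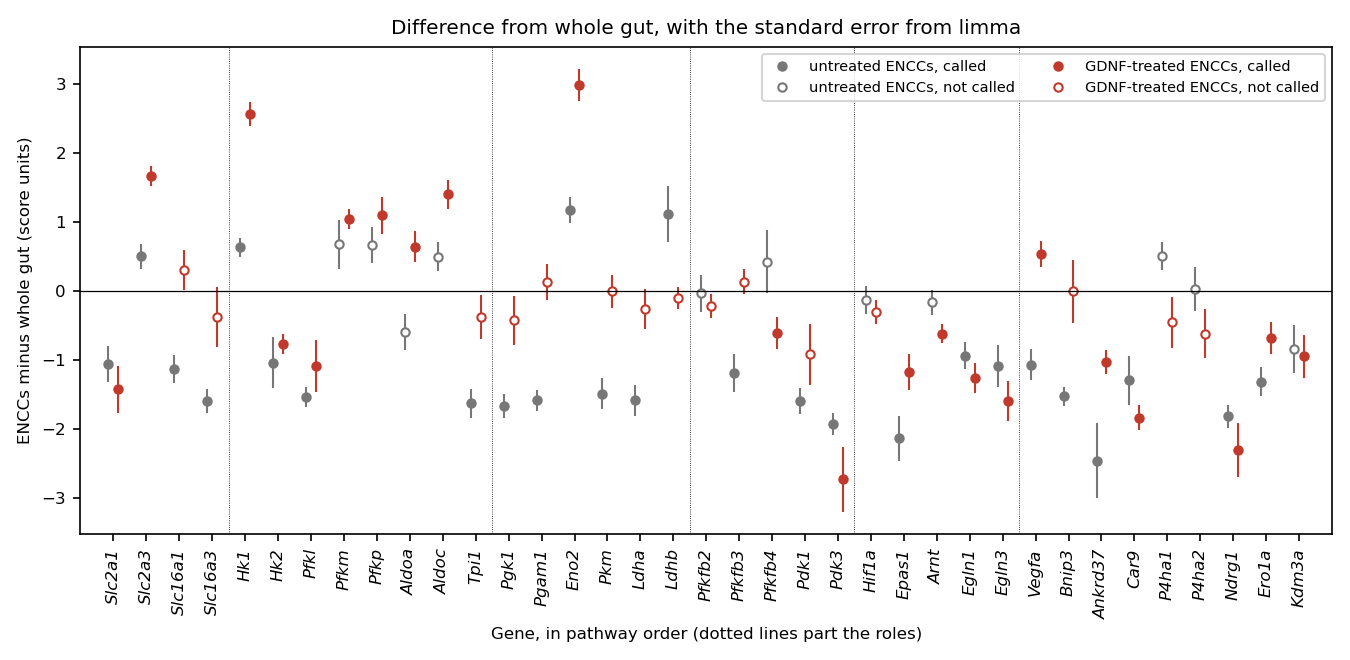
ENCC minus whole gut score (y axis, score units; bars are the standard error of the limma fit with 1 spread) of the 37 genes in pathway order (x axis), grey for untreated and red for GDNF-treated ENCCs; filled circles were called in that fit. The grey points of Pgam1 (-1.59) and Ldha (-1.59) lie well below 0 where the red points lie near it (0.13 and -0.27), and those of Eno2, Hk1 and Slc2a3 lie above 0 in both. A point near 0 means like scores and does not show equal expression.

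Eno2 scored 0.08, 0.59, 1.69 and 1.20 in the treated wells of guts 2, 3, 8 and 9, above the whole gut maximum of -1.99, and the difference was 2.98 (adjusted p = 3.27e-07). Hk1 scored 0.24, 1.36, 1.11 and 1.21 against a whole gut maximum of -1.50, a difference of 2.56 (adjusted p = 1.45e-07). Slc2a3 scored 0.43, 0.65, 1.03 and 0.22 against -1.15 to -0.95, a difference of 1.66 (adjusted p = 8.66e-07). None of the 3 genes had a treated well inside the range of whole gut. Pfkm, the muscle form of phosphofructokinase, was higher by 1.04 (adjusted p = 3.21e-05), with treated wells at 0.60, 0.19, 0.62 and 0.12. Its only probe set did not agree between the batches (r = -0.332). Aldoc was higher by 1.40 (adjusted p = 1.11e-04), with treated wells at 0.68, 0.84, -0.52 and 0.25 against -1.24 to -0.94.

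For 7 genes that rose with GDNF, the untreated wells were called lower than whole gut by the fit with 1 spread and the treated wells were not called. These were Slc16a1, Tpi1, Pgam1, Pkm, Ldha, Pfkfb3 and Bnip3. Pgam1 scored -0.12, 1.80, 0.78 and 1.20 in the treated wells, on both sides of whole gut, and the difference was 0.13. Ldha scored -0.44, 1.77, 0.67 and 0.86, with gut 3 alone above whole gut and a difference of -0.27. Tpi1 (-0.50, 1.99, 0.57 and 0.65), Pkm (-0.03, 1.58, 0.86 and 0.76) and Bnip3 (0.08, 3.07, 0.13 and 0.02) were ordered alike, with gut 3 the highest. The other wells lay below whole gut, apart from Pkm in guts 8 and 9, which lay inside its range. Slc16a1 scored 1.37, 0.52, 1.57 and -0.32, and Pfkfb3 0.05, 0.78, 0.95 and 0.54. The batch 2 wells of guts 2, 3, 8 and 9 also enter the GDNF differences. Genes picked for a rise there therefore tend to low untreated and high treated scores, and the pattern is no separate support for the rise. The share of all genes with this pattern is not given here. Neither a missing call nor a like score shows that treated ENCCs and whole gut were alike in expression.

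The treated well of gut 3 decided part of this. Without it 19 genes were called lower than whole gut and 6 higher in the fit with 1 spread. Among those gained were Bnip3 (-0.75, adjusted p = 3.42e-05), Tpi1 (-0.81), Pgk1 (-0.89), Ldha (-0.63), Slc16a3 (-0.98) and Pdk1 (-1.62). Aldoa, at 0.64, passed only the fit with 1 spread (adjusted p = 0.0338, and 0.0953 with a separate spread). That call was lost in 8 of the 12 fits that left out 1 array, and the difference ran from 0.49 without gut 3 to 0.99 without gut 2. In the fit with 1 spread, leaving out the treated well of gut 2 took the Pfkl difference from -1.09 to -0.72 and ended its call (adjusted p = 0.113), and took Ero1a from -0.68 to -0.35 (adjusted p = 0.0387). Without gut 9, Kdm3a moved from -0.95 to -0.62 and was not called (adjusted p = 0.0785).

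Some genes of each side were lower than whole gut in both kinds of ENCC by both fits. The share of all genes that were so is not given here, and both comparisons use the same whole gut arrays. Ndrg1 scored 0.37, 1.32, -0.71 and -1.60 in the treated wells, all under the whole gut minimum of 1.95, with a difference of -2.31 (adjusted p = 2.81e-04). Car9 scored 0.37, -0.76, -0.33 and -0.62 against at least 1.37, a difference of -1.84 (adjusted p = 2.81e-06). Egln3 (-1.60), Egln1 (-1.26) and Ankrd37 (-1.03) were lower too. Epas1 was lower, at -1.18 (adjusted p = 0.00216), but its 2 probe sets were at -2.13 and -0.22, and the probe set that agreed best between batches did not give a call (-0.22, adjusted p = 0.337). On the glycolysis side Pdk3 scored -1.03, -0.27, -2.04 and 1.63 and was lower, at -2.73 (adjusted p = 3.25e-04). Slc2a1 was lower, at -1.43 (adjusted p = 0.00309), with treated wells at -1.40, -0.43, 0.75 and 0.92 against at least 1.37. Between the batches, the most reproducible probe set correlated at 0.15 for Car9, 0.178 for Pdk3, 0.203 for Ankrd37, 0.331 for Egln1 and 0.438 for Epas1. For Slc2a1, Egln3 and Ndrg1 it correlated at 0.837 to 0.971.

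Vegfa was below whole gut in untreated and above it in treated ENCCs in the fit with 1 spread. Its untreated wells scored -0.88, -0.73, -0.13 and -1.46, its treated wells 0.29, 1.23, 1.14 and 0.53, and whole gut 0.00 to 0.49 with a median of 0.27. The untreated wells were all below whole gut, whereas the treated well of gut 2 lay within its range. The differences were -1.07 (adjusted p = 0.00120) and 0.53 (adjusted p = 0.0318), and with a separate spread neither passed (adjusted p = 0.120 and 0.405). The change of sign is one of scores, and whether Vegfa expression in treated ENCCs exceeded that of whole gut cannot be read from it.

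In the treated wells 10 genes lay entirely below whole gut and 5 entirely above it, where 17.1% and 17.8% of all genes did. The treated and untreated comparisons share the 8 whole gut arrays, and their ENCC arrays also enter the GDNF differences. The values are set side by side only.

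Cell makeup moved with the whole gut comparisons. By the fit with 1 spread, markers of enteric neurons were higher in untreated ENCCs for 14 of 16 genes and in treated ENCCs for 16 of 16. Their mean score ran from -1.0 to -0.35 in untreated wells, 0.61 to 0.76 in treated wells and -1.71 to -1.62 in whole gut. In the same fit smooth muscle markers were lower in untreated ENCCs for 7 of 8 genes and in treated ENCCs for 6 of 8, and mesenchyme markers for 6 and 9 of 11. Macrophage markers were lower for 8 and 6 of 8 and erythroid markers for 6 and 5 of 8. The mean score of the epithelial markers ran from -0.91 to 0.39 in untreated wells, -0.24 to 0.63 in treated wells and 2.65 to 2.70 in whole gut. All 11 genes of dividing cells were lower in both kinds of ENCC, with mean scores of -0.69 to 0.79, -1.31 to 0.83 and 1.54 to 1.68. The part of these cell types, of division and of culture in the lower or higher scores of glycolytic and hypoxia genes was not tested.

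Other genes of the pathway were set against whole gut by the same fit with 1 spread, in which 22.8% of all genes were lower and 19.8% higher in untreated ENCCs, and 26.0% and 25.1% in treated ENCCs. Of 21 genes of glycolysis and pyruvate entry, 12 were lower and 2 higher in untreated ENCCs, and 8 and 6 in treated ENCCs. Pklr, the liver and red cell pyruvate kinase, was lower, at -2.75 (adjusted p = 2.03e-06) in untreated ENCCs, and Mpc1 was higher by 2.32 (adjusted p = 6.58e-06) in treated ones. Of 8 pentose phosphate genes 4 were lower and 0 higher in untreated ENCCs, and 5 and 2 in treated ENCCs. Glycogen genes gave 5 lower and 3 higher of 12, then 6 and 3, and the 13 genes that control HIF gave 2 and 1, then 3 and 4. Of the 28 further hypoxia-induced genes 8 were lower and 8 higher in untreated ENCCs, and 10 and 6 in treated ones. In that list Igfbp3, which binds insulin-like growth factors (2.05), and Ddit4 (1.82) were higher in untreated ENCCs than in whole gut, and Tfrc, the transferrin receptor gene, was lower (-1.64). The 9 called genes among the 14 of the hypoxia side were all lower in untreated ENCCs in that fit. In treated ENCCs 9 of the 14 were lower and 1, Vegfa, was higher.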

How the data were processed

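RNA of sorted enteric neural crest cells and of whole guts was read on Affymetrix arrays. The deposited values are a score per probe set; the submitters' processing notes name RMA with no version. Every array holds the same set of values, which are normal quantiles of ranks (deviating by at most 5e-06). Averaging the 7 ENCC RNAs common to the batches left a probe-set SD of 0.0585 in batch 1 and 0.117 in batch 2, against 0.378 for unrelated arrays, a mark of centring on ENCC arrays within a batch. No label records that step. Dim probe sets could not be filtered. The tests were planned for log2 values and were kept for scores.

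A gene score was the mean of its probe sets with 1 symbol (34945 of 45101). Probe sets with several symbols or none and array controls were left out. Limma 3.58.1 in R 4.3.3 was fitted with lmFit and eBayes to the treated minus untreated difference of 9 guts. Guts 3, 8 and 9 entered as the mean of both batches, gut 2 from batch 2 and the others from batch 1. Limma was also fitted to the 4 untreated, or 4 treated, ENCC arrays against the 8 whole gut arrays of batch 2. Adjustment was by Benjamini-Hochberg over 18193 genes with a threshold of 0.05. The fits were tested on simulated data. There the fit of ENCCs against whole gut with 1 spread for both groups made more false calls than its threshold allows, because whole gut varied less. A fit with a separate spread for each group (arrayWeights), which made fewer, was therefore added after the data were seen, and both are given.

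The pairing comes from the labels' treatment protocol, in which the cells of a gut were divided over both wells, and the gut number was read from the titles. In batch 1, deviations of the wells of 1 gut correlated at 0.025 to 0.305 over 8 guts (median 0.186), and those of different guts had a median of -0.0952. Shared litters are not stated, and p-values measure the spread between these samples, which may be technical in part. Alternatives were wells unpaired, each batch alone, all arrays in 1 fit, other ways to combine probe sets, robust moderation, hybridisation controls as a covariate, and each gut left out. Genes are ordered by role. Values per sample are given for genes called in a comparison, up to the 10 with the largest moderated t, and for genes called with opposite signs. The genes, the lists and the tests were chosen with earlier results of these data known.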

Additional observations from a re-analysis of the deposited data

Results flagged for a closer look

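In 148 groups of 4 to 9 values, 1 for each gene and group, 22 held a value far from the others by Dixon's test, which flags about 1 in 20 groups by chance. The 6 that concern the difference with GDNF all came from gut 3. There Aldoa differed by 2.72 (0.12 to 1.14 in the other guts), Tpi1 by 3.20 (0.00 to 1.34) and Pgk1 by 3.22 (0.01 to 0.82). Pkm differed by 2.97 (-0.20 to 1.35), Ldha by 3.08 (0.05 to 1.21) and Bnip3 by 3.61 (0.38 to 1.28). The batch 2 array of its treated well also stood apart for Bnip3, at 3.07 against 0.02 to 0.13 in the other treated wells.

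Among untreated wells of batch 2, gut 3 was low for Slc2a1 (-0.83, others 0.67 to 0.80) and Pfkm (-1.72, others 0.50 to 0.68). Gut 2 was high there for Egln1 (1.07, others 0.02 to 0.18), P4ha1 (1.30, others 0.27 to 0.38) and Ndrg1 (0.90, others 0.08 to 0.19), and gut 9 was low for Epas1 (-2.15, others -0.21 to 0.04). Among treated wells gut 2 was low for Aldoa (-0.38, others 0.89 to 1.11), Hif1a (-0.54, others 0.18 to 0.29) and Ankrd37 (-0.24, others 0.64 to 0.74).

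Scores of whole guts differed little, and the values that stood apart did so within a narrow range. Whole gut 2 was low for Pgam1 (0.60, others 0.76 to 0.85) and Epas1 (1.34, others 1.52 to 1.67). Whole gut 4 was low for Pdk3 (2.22, others 2.28 to 2.33), Ndrg1 (1.95, others 2.15 to 2.22) and Ero1a (0.73, others 1.01 to 1.18), and whole gut 6 was high for Pfkfb2 (0.44, others 0.04 to 0.21).

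The array's control probe sets for Gapdh, the glycolytic glyceraldehyde phosphate dehydrogenase, belong to no comparison above. The 3 of them differed by 0.94, 1.14 and 0.97 between treated and untreated wells and were higher in the treated well of 9 of 9 guts. These differences were not tested.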

How the results depend on the processing

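No difference that was called changed sign under an alternative. With the replicate block left out, so that wells were not paired by gut, 4890 genes in place of 5725 were called for GDNF, and 1 gene of the group fell in place of 5. The count of falls was also 1 with the hybridisation controls as a covariate. Batch 2 alone gave 0 genes in all by limma, and 0 higher and 0 lower in the group (3516 genes, 14 and 0 at an unadjusted p under 0.05). Leaving out 1 gut at a time gave 2 to 6 falls and 12 to 14 rises, and Hk2 joined the falls without gut 3. Against whole gut, untreated ENCCs had 4 genes of the group higher with 1 spread, 7 without the untreated batch 2 array of gut 3, and 2 to 7 when 1 array was left out. With a separate spread for each group the calls were 3761 in place of 7752 genes for untreated ENCCs, with 1 of the group higher, and 5805 in place of 9281 for treated ENCCs, with 5 higher. Of the 26 and 22 calls in the group against whole gut, 18 and 13 held in every alternative. Counts with the median of the probe sets or the most reproducible probe set, with robust moderation (whole gut comparisons), and with batch 1 alone or all arrays in 1 fit (GDNF) stayed within 1.5 times those reported.

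With 4 ENCC arrays in a group and a low correlation of the apparently centred scores between arrays of 1 RNA, small differences were not detectable. Scores give no signal over background, and genes that are not expressed were not left out. All whole guts are in batch 2, and tissue was compared inside that batch. ENCCs and whole gut also differ in sorting, culture and genotype, which cannot be told apart from cell identity.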

Other observations

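Bnip3l, a relative of Bnip3, could not enter a comparison because its 3 probe sets are shared with a pseudogene. Their treated minus untreated differences were -0.63, -0.38 and -0.17, with the treated well higher in 1, 1 and 4 of 9 guts.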
